A study of Mus musculus with 6 samples.

Results

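The passage of a cell from G1 into S phase was followed here through 10 genes, the D-type cyclins Ccnd1, Ccnd2 and Ccnd3, their kinases Cdk4 and Cdk6, the inhibitors Cdkn1b, Cdkn2a and Cdkn2b, the retinoblastoma gene Rb1 and the transcription factor gene E2f1. They were chosen as named components of this pathway, with earlier results of these data known, and found by symbol among the 36172 genes of the deposited table. All 10 had at least 4 rpkm (reads per kilobase of transcript, scaled to the mapped reads of the library) in at least 1 library, as did 10042 genes of the whole table. Ccnd3 passed this limit through the p53-null libraries alone and Cdkn2a through the p53-null and R270H libraries, since their other values lay below it.

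RNA came from organoids, cultures of tumor epithelial cells in a gel, of 3 genotypes with 2 libraries each, and the 2 libraries of a genotype were prepared independently from different mice. All mice were C57BL/6, aged 15 to 20 weeks, and all carried the Apc Δ716 allele, which truncates Apc at codon 716, with loss of the wild-type Apc allele in the small intestinal tumor. Apc Δ716 Trp53+/+ tumors kept wild-type p53. Apc Δ716 Trp53flox/flox tumors carried 2 copies of a Trp53 LSL•R270H allele that is null until Cre removes its stop cassette. As the authors define this genotype, it also carried villin-CreER, a tamoxifen-dependent Cre driven in the intestinal epithelium. In Apc Δ716 Trp53R270H/R270H tumors this Cre had been activated, so that both alleles expressed the missense protein p53 R270H. The R270H allele was activated with tamoxifen, whether the other mice received it is not given in the sources used here, and its part in the results was not tested. The null and R270H genotypes are together called Trp53-mutant.

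In textbook terms, D cyclins accumulate in response to growth signals, Wnt signaling included, and bind CDK4 or CDK6. The active kinases phosphorylate the retinoblastoma protein, which then releases E2F factors to transcribe the genes of DNA replication. INK4 proteins, encoded by Cdkn2a and Cdkn2b, block CDK4 and CDK6 directly, while p27, encoded by Cdkn1b, and p21, encoded by the p53 target Cdkn1a, act mainly on CDK2 complexes. Cdkn2a also encodes p19Arf, which stabilizes p53 by holding back MDM2.

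The genotype labels were checked first. Trp53 stood at 75.9 and 74.3 rpkm in the Trp53+/+ libraries, at 1.73 and 2.48 rpkm in the Trp53flox/flox libraries, and at 72.8 and 82.7 rpkm in the Trp53R270H/R270H libraries, so the null libraries alone were low in the transcript. Sequencing depth, inferred from genes shorter than 230 nt whose rpkm climbs by single reads, was 44.2 to 47.3 M mapped reads in 4 libraries and could not be resolved in replicate 1 of Trp53+/+ and of Trp53flox/flox. The 2 Trp53flox/flox libraries stood apart from each other: the median SD between libraries over genes, in log2(rpkm + 1), was 0.247 in Trp53flox/flox, 0.046 in Trp53+/+ and 0.062 in Trp53R270H/R270H. Replicate 1 of Trp53flox/flox had the fewest genes above 1 rpkm (10718, other libraries 11301 to 11618). Its summed rpkm was the largest (484930, other libraries 377845 to 413612), and the part of this difference in the results was not tested. The cultures had the defining markers of epithelium, with Krt18 or Krt19 highest in each library, and the 8 epithelial markers summed to 2820 to 2873 rpkm in Trp53+/+, 4178 to 4455 in Trp53flox/flox and 2292 to 2459 in Trp53R270H/R270H. Of 9 fibroblast markers none exceeded 2.44 rpkm, and of 8 immune and endothelial markers all but Cd68 and Cdh5 stayed at the table's floor of 1 rpkm in every library. Cdh5 was at 8.88 and 9.35 rpkm in Trp53+/+, 1 and 3.30 in Trp53flox/flox and 1.04 and 1 in Trp53R270H/R270H. Cd68 was at 10.2 and 9.87, 2.06 and 11.1, and 2.22 and 2.41 rpkm in the same order, highest in a null library. The part of other cells in the results below was not tested.

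The Cdkn2a row needs its sequence to be read correctly. Cdkn2a lies on the minus strand of chromosome 4 (89274471 to 89294653, GRCm38, GENCODE M21), and its transcripts begin at 2 separate starts, the upstream one for p19Arf and the downstream one for p16Ink4a. They share later exons, and the table gives them 1 rpkm value, so the rise or fall of either product cannot be separated. The 250 bases before each start are shown from RefSeq (GRCm38.p6), 5′ to 3′ on the transcribed strand, with the 250 bases before the start of its neighbour Cdkn2b. Capitals mark TTTNNCGC, the core letters of an E2F motif, searched on both strands with no other motif.

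Cdkn2a, p19Arf start, chr4:89294620-89294869, minus strand: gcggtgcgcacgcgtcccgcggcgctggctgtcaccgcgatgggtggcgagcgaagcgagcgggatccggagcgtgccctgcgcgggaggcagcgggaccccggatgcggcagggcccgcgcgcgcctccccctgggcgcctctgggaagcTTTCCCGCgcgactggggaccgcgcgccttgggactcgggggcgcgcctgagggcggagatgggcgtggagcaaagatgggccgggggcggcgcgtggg
Cdkn2a, p16Ink4a start, chr4:89282193-89282442, minus strand: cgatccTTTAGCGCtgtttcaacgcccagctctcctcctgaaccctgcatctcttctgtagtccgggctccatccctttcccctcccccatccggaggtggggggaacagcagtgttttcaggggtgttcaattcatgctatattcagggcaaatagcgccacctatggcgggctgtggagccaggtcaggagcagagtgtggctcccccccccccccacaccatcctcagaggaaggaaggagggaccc
Cdkn2b start, chr4:89311033-89311282, minus strand: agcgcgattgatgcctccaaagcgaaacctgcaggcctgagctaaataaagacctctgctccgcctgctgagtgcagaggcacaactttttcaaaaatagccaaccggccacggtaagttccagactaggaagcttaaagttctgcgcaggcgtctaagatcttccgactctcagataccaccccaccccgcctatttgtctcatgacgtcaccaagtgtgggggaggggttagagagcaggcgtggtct

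The p19Arf window held TTTCCCGC and was 78.4% G or C, the p16Ink4a window held TTTAGCGC and was 60.0% G or C, and the Cdkn2b window, at 53.6%, held no match to these letters. The letters occurred in 4.3% of 32851 promoter windows of this length, and 4.9% of 27025 genes had them before at least 1 start. Of the 10 genes, 7 had an entry in the promoter table, and of these 2, Cdkn2a and Cdk6, held a match. The windows of E2f1 (154569427 to 154569676) and Cdk6 (3343643 to 3343892) lie within the GENCODE spans of these genes, given below. Bases before their outermost GENCODE starts were not searched, so the lack of a match for E2f1 does not cover them. Ccnd1, Ccnd2 and Rb1 had no entry. Among the E2F target genes described below, 8 of 26 with an entry (30.8%) held the letters. A match is a description of the window and does not show that a factor binds there.

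Levels within a library can be compared between genes because rpkm is per length. In Trp53+/+ organoids Cdk4 was the highest of the 10 genes (337 ± 26.1 rpkm, mean ± SD, n = 2), followed by Ccnd2 (219 ± 29.9) and Ccnd1 (158 ± 16.9). Then came Rb1 (19.6 ± 1.32), Cdk6 (17.0 ± 0.494), Cdkn1b (15.0 ± 0.651), E2f1 (10.6 ± 0.201), Cdkn2b (5.91 ± 0.170), Ccnd3 (3.53 ± 0.103) and Cdkn2a (3.31 ± 0.645). Only the last 2 neighbours in this order had overlapping values. In Trp53R270H/R270H organoids Rb1 stood below Cdkn1b, Cdk6 and E2f1 in both libraries, and in Trp53flox/flox organoids its mean was the lowest of all 10 (7.39 ± 2.79 rpkm), although its values overlapped those of Cdkn2b and Ccnd3.

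**Figure D1:**
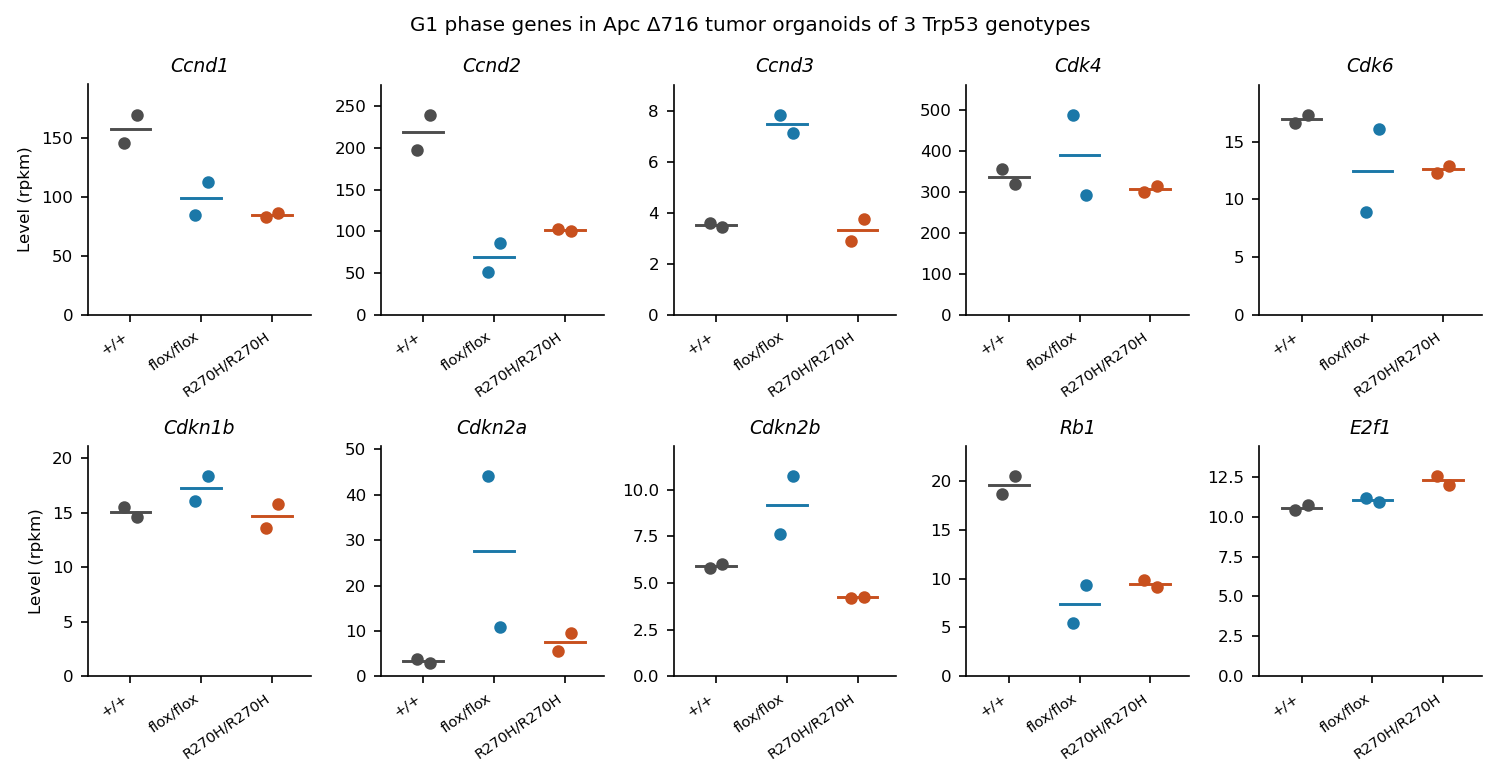
Level of each of the 10 genes in rpkm (vertical axis, from 0, with a scale of its own in each panel) in the 3 Trp53 genotypes (horizontal axis). Points are the 2 libraries of a genotype and bars their mean. Ccnd1, Ccnd2 and Rb1 were lower in both Trp53-mutant genotypes than in either Trp53+/+ library, Ccnd3 was higher in Trp53flox/flox alone, and Cdkn2a ran from 10.9 to 44.1 rpkm between the Trp53flox/flox libraries.

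Each comparison asked how loss of p53, or its replacement by the missense protein, went with the level of these genes. It was tested with limma on log2(rpkm + 1) over the 10042 genes, with a spread shared by the 3 genotypes and p-values adjusted by the Benjamini-Hochberg method, and a gene is said to have risen or fallen only where the adjusted p was under 0.05. With 2 libraries against 2, an exact two-sided permutation test cannot give a p below 0.333, and sums and ratios are given as values without a test. The 3 comparisons share their groups and are not independent of each other. Between Trp53flox/flox and Trp53+/+, 1 of the 10 genes rose (Ccnd3, which was tested only because of its level in Trp53flox/flox) and 2 fell (Ccnd2 and Rb1), where 4.38% of all genes tested rose and 6.9% fell. Between Trp53R270H/R270H and Trp53+/+, none rose and 1 fell (Ccnd1), where 5.86% of all genes rose and 6.36% fell. Most of the shared spread comes from Trp53flox/flox, which is not part of this comparison. With only these 2 genotypes in the fit, Ccnd3 did not reach 4 rpkm and was not tested. Of the other members 2 were called higher and 5 lower. In that fit, of at most 10042 genes tested, 3150 were called higher and 2618 lower, so such calls were common. A gene not called here is therefore not shown to be unchanged. Between Trp53R270H/R270H and Trp53flox/flox, none rose and 2 fell (Ccnd3 and Cdkn2b), where 13.6% of all genes rose and 11.0% fell. At an unadjusted limma p under 0.05 the 3 comparisons held 6, 3 and 2 of the 10 genes. The share of all genes at this level is not given here, so these counts cannot be read as an excess.

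Libraries that do not overlap between genotypes were common in these data. In the first comparison 5 members were higher and 4 lower in both libraries, where 30.6% of all genes were higher and 33.9% lower without overlap. In the second these were 2 and 6 members, against 44.2% and 37.6% of all genes, and in the third 2 and 4 members, against 36.8% and 31.2%. By genotype means at least 2-fold apart, 4 members differed in the first comparison (Cdkn2a, Ccnd2, Rb1 and Ccnd3). In the second 3 differed (Cdkn2a, Ccnd2 and Rb1) and in the third 3 (Cdkn2a, Cdkn2b and Ccnd3). Of all genes, 11.0%, 10.5% and 15.4% differed in this way. Ccnd3 and Cdkn2a, counted here and among members without overlap, passed the limit of 4 rpkm only through genotypes where they were high. These counts are thus partly set by the filter and are no support for a change. The median log2 difference of the 10 genes was 0.11, -0.27 and -0.21 in the 3 comparisons, beside -0.02, 0.03 and 0.03 for all genes.

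**Figure D2:**
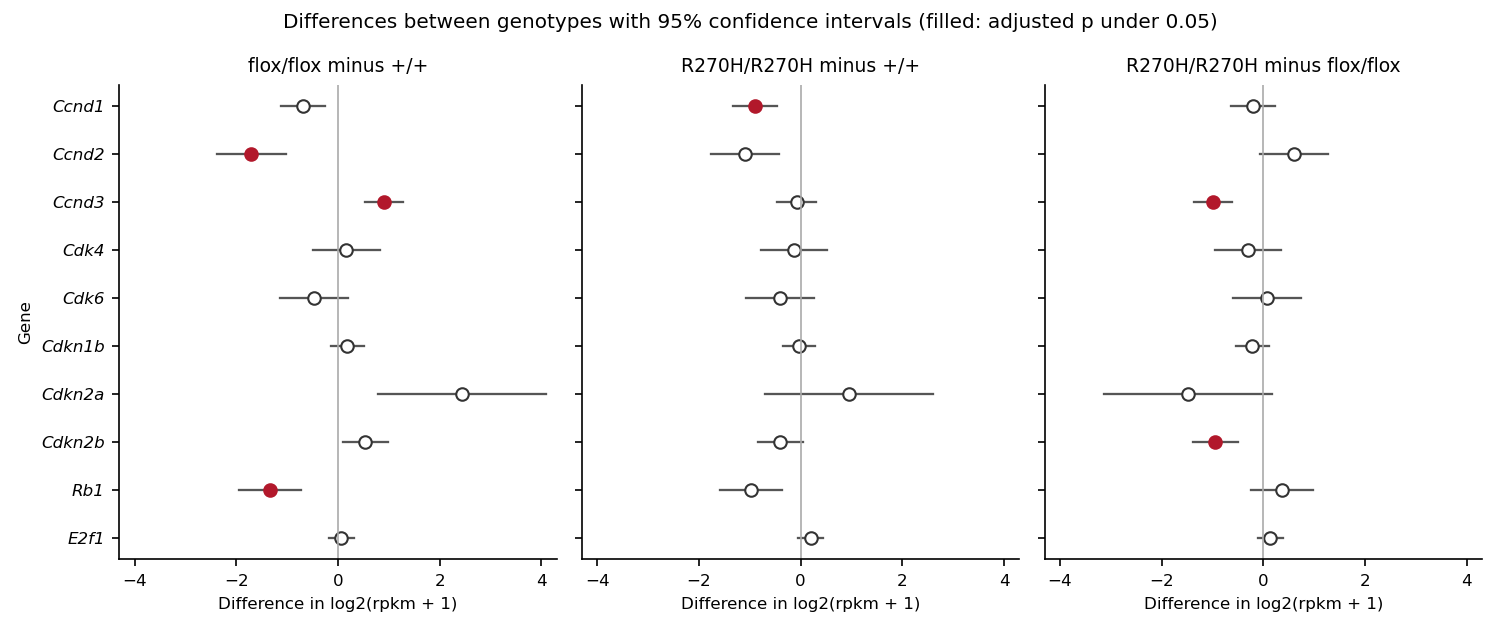
Difference in log2(rpkm + 1) between genotypes (horizontal axis, 0 at the grey line) for each gene (vertical axis), with 95% confidence intervals from limma as lines. Filled points had an adjusted p under 0.05: Ccnd2, Rb1 and Ccnd3 in the left panel, Ccnd1 in the middle panel, and Ccnd3 and Cdkn2b in the right panel. The interval of Cdkn2a was the widest in all 3 panels.

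Ccnd1 and Ccnd2 were lower in both Trp53-mutant genotypes than in either wild-type library, while Ccnd3 was higher in the null genotype alone. Ccnd2 (chromosome 6, 127125162 to 127152193), the most abundant D cyclin with wild-type p53, was at 198 and 240 rpkm in Trp53+/+, 50.8 and 86.4 in Trp53flox/flox, and 103 and 100 in Trp53R270H/R270H. Both Trp53-mutant genotypes lay below the wild-type libraries, and the null libraries lay below the R270H libraries as well. Ccnd2 fell 3.19-fold in mean rpkm in Trp53flox/flox (log2 difference -1.70, SE 0.27, limma adjusted p = 0.0264). Its difference in Trp53R270H/R270H, -1.09 (SE 0.27), missed the threshold (adjusted p = 0.0580), and the null and R270H genotypes differed by 0.61 with a 95% interval from -0.06 to 1.28. The 4 other tested genes within 500 kb of Ccnd2 had a median log2 difference of 0.09 in Trp53flox/flox against Trp53+/+, and none was called. The log2 difference of Ccnd2 from Trp53+/+ was -1.32 without Trp53flox/flox replicate 1 and -2.08 without replicate 2. These fits hold a single null library and none of the spread between the 2, so they are no support for the call. The call was lost without any 1 of the other 4 libraries.

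Ccnd1 (chromosome 7, 144929931 to 144939925), a D cyclin known as a target of Wnt signaling, was at 146 and 170 rpkm in Trp53+/+, 84.7 and 113 in Trp53flox/flox, and 82.5 and 86.4 in Trp53R270H/R270H. All 4 Trp53-mutant libraries lay below both wild-type libraries. Ccnd1 fell in Trp53R270H/R270H (log2 difference -0.89, SE 0.17, limma adjusted p = 0.0349), by 1.87-fold in mean rpkm. In Trp53flox/flox its difference was -0.68 (adjusted p = 0.0632), and the 2 Trp53-mutant genotypes differed by -0.21 with a 95% interval from -0.64 to 0.22. The call in Trp53R270H/R270H was lost without either Trp53+/+ library (0.190 and 0.280) and without either Trp53R270H/R270H library (0.253 and 0.200).

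Ccnd3 (chromosome 17, 47505051 to 47599691), the least abundant D cyclin here, was at 3.61 and 3.46 rpkm in Trp53+/+, 7.86 and 7.14 in Trp53flox/flox, and 2.87 and 3.74 in Trp53R270H/R270H. Only the null libraries exceeded 4 rpkm, and the other 2 genotypes overlapped. Ccnd3 rose 2.12-fold in Trp53flox/flox over Trp53+/+ (log2 difference 0.91, SE 0.15, limma adjusted p = 0.0288) and was lower in Trp53R270H/R270H than in Trp53flox/flox (-0.99, SE 0.15, adjusted p = 0.0148). Since Ccnd3 passed the limit of 4 rpkm through the genotype where it was high, both calls depend on how genes were admitted: with every gene above 1 rpkm in any library tested the adjusted p was 0.0274 and 0.0135, and with no limit it was 0.107 and 0.0592. Against Trp53+/+ the R270H genotype differed by -0.08, with a 95% interval from -0.46 to 0.30. The rise over Trp53+/+ was lost without any 1 library of Trp53+/+ or Trp53R270H/R270H (0.0932 to 0.272), as was the difference between the 2 Trp53-mutant genotypes (0.0658 to 0.126). Bysl, whose last bases overlap the end of Ccnd3 on the opposite strand, was at 11.8 and 11.9, 18.7 and 15.1, and 12.2 and 12.5 rpkm in the same order. The kit was stranded, but use of strand in the authors' counting is not given in the sources used here, so reads of the shared bases cannot be assigned.

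Summed within each library, D cyclin transcripts came to 347 and 413 rpkm in Trp53+/+, 143 and 206 in Trp53flox/flox, and 188 and 190 in Trp53R270H/R270H. The pool was smaller in both Trp53-mutant genotypes, but its make-up differed. Ccnd1 made up 42.1% and 41.1% of the pool in Trp53+/+, 59.1% and 54.7% in Trp53flox/flox, and 43.9% and 45.4% in Trp53R270H/R270H. Ccnd2 made up 56.9% and 58.0%, 35.4% and 41.9%, and 54.6% and 52.7%. Thus Ccnd2 was the larger share in all 4 libraries with wild-type or R270H p53, and Ccnd1 in both null libraries. Ccnd3 contributed between 0.837% and 1.96% outside the null genotype and 5.48% and 3.46% within it.

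**Figure D3:**
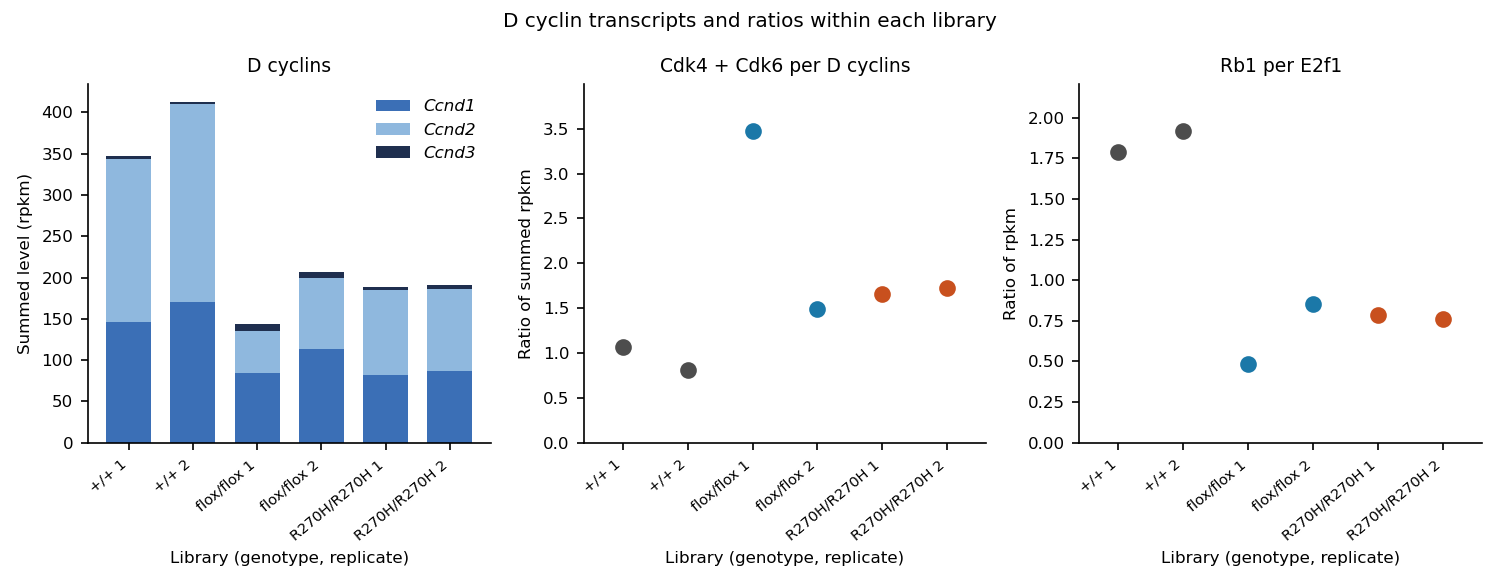
Left, summed level of the D cyclins in rpkm in each library, with Ccnd1, Ccnd2 and Ccnd3 stacked from 0. Middle and right, the ratio of summed Cdk4 and Cdk6 to summed D cyclins and the ratio of Rb1 to E2f1 in each library, both from 0. Both Trp53+/+ libraries had the lowest kinase to cyclin ratios (1.07 and 0.812) and the highest Rb1 to E2f1 ratios (1.79 and 1.92).

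The kinases showed no change that passed the test. Cdk4 (chromosome 10, 127063534 to 127067920) was at 355 and 318 rpkm in Trp53+/+, 489 and 292 in Trp53flox/flox, and 299 and 315 in Trp53R270H/R270H. Its highest and lowest values both came from Trp53flox/flox, and without replicate 1 of that genotype its difference from Trp53+/+ turned from 0.17 (adjusted p = 0.660) to -0.20. Tspan31, which overlaps the end of Cdk4 on the opposite strand, was at 51.5 to 74.0 rpkm. Cdk6 (chromosome 5, 3341485 to 3531008) was at 16.7 and 17.4 rpkm in Trp53+/+, 8.87 and 16.1 in Trp53flox/flox, and 12.3 and 12.9 in Trp53R270H/R270H. All 4 Trp53-mutant libraries lay below the wild-type ones, with log2 differences of -0.47 in Trp53flox/flox and -0.40 in Trp53R270H/R270H (limma adjusted p = 0.255 and 0.352). The former rested on 1 library, being -0.08 without Trp53flox/flox replicate 1 and -0.87 without replicate 2. In Trp53flox/flox replicate 1, where Cdk6 was lowest, the 650 tested genes of chromosome 5 had a median log2 difference from Trp53+/+ of 0.29, against -0.04 for all genes. The 6 other tested genes within 500 kb of Cdk6 had a median of -0.45 in Trp53flox/flox against Trp53+/+. Of these, 1 was called lower (Krit1), where 6.9% of all genes fell.

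Since Cdk4 supplied 94.8% to 98.2% of the kinase transcripts in every library, the ratio of kinase to D cyclin transcripts followed Cdk4 and the cyclin pool. It was 1.07 and 0.812 in Trp53+/+, 3.47 and 1.49 in Trp53flox/flox, and 1.66 and 1.72 in Trp53R270H/R270H. D cyclin transcripts per Cdkn1b transcript were 22.4 and 28.4, 8.92 and 11.3, and 13.9 and 12.1 in the same order. In both ratios all 4 Trp53-mutant libraries lay on one side of the wild-type libraries.

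Of the 3 inhibitors among the 10 genes, Cdkn2a showed the largest difference in mean level and the widest spread. It was at 3.77 and 2.85 rpkm in Trp53+/+, 44.1 and 10.9 in Trp53flox/flox, and 5.47 and 9.64 in Trp53R270H/R270H. Every Trp53-mutant library was above both wild-type libraries, and the 2 null libraries differed from each other more than the R270H libraries differed from the wild type. The mean was 8.31-fold higher in Trp53flox/flox than in Trp53+/+, with a log2 difference of 2.43 (SE 0.65, 95% interval 0.78 to 4.08, limma adjusted p = 0.0717). It was 2.28-fold higher in Trp53R270H/R270H (0.95, 95% interval -0.70 to 2.60, adjusted p = 0.373). None of its 3 comparisons passed the test. The difference of the null genotype was 1.47 without its replicate 1 (adjusted p = 0.0181) and 3.40 without its replicate 2 (0.000582), but these fits hold a single null library and none of the spread between the 2, so they are no support for a rise. Without any 1 of the other 4 libraries the adjusted p was 0.173 to 0.367. A bulk value cannot tell more cells with the transcript from more transcript per cell, here or for any gene above.

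Cdkn2b (chromosome 4, 89306299 to 89311039), which encodes p15Ink4b and lies next to Cdkn2a, was at 5.79 and 6.03 rpkm in Trp53+/+, 7.60 and 10.7 in Trp53flox/flox, and 4.19 and 4.25 in Trp53R270H/R270H. The null libraries lay above and the R270H libraries below the wild type, with no overlap among the 3 genotypes. Cdkn2b was lower in Trp53R270H/R270H than in Trp53flox/flox, by 0.94 on the log2 scale (log2 difference -0.94, SE 0.17, limma adjusted p = 0.0223), while its differences from Trp53+/+, 0.54 in the null and -0.40 in the R270H genotype, did not pass (adjusted p = 0.102 and 0.185). The call was lost without any 1 library of Trp53+/+ or Trp53R270H/R270H (0.085 to 0.177). The Cdkn2a to Cdkn2b ratio was 0.650 and 0.473 in Trp53+/+, 5.81 and 1.01 in Trp53flox/flox, and 1.31 and 2.27 in Trp53R270H/R270H, so Cdkn2a lay below Cdkn2b in both wild-type libraries and above it in the other 4. Mtap, the next tested gene of this locus, was at 48.7 and 52.7, 96.5 and 52.98, and 70.2 and 66.9 rpkm.

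Cdkn1b (chromosome 6, 134920401 to 134925513) was the steadiest inhibitor, at 15.5 and 14.6 rpkm in Trp53+/+, 16.1 and 18.3 in Trp53flox/flox, and 13.6 and 15.8 in Trp53R270H/R270H. No comparison passed the test, and the 95% intervals of its log2 differences lay within -0.54 and 0.50. Of the 4 CDK inhibitors outside the 10 genes, all of which were tested, Cdkn1a fell in both Trp53-mutant genotypes, from 110 and 122 rpkm to 11.8 and 26.95 in Trp53flox/flox (log2 difference -2.62, limma adjusted p = 0.0206) and to 31.9 and 29.5 in Trp53R270H/R270H (-1.88, adjusted p = 0.0353). Cdkn1c, which encodes p57, was at 6.42 and 4.87 rpkm in Trp53+/+, 5.69 and 9.79 in Trp53flox/flox, and 23.5 and 24.8 in Trp53R270H/R270H. It was higher in Trp53R270H/R270H than in Trp53+/+ (1.93, adjusted p = 0.0150) and than in Trp53flox/flox (1.56, adjusted p = 0.0173). Cdkn2c, which encodes p18Ink4c, was at 4.14 and 3.88, 11.1 and 6.65, and 4.03 and 3.94 rpkm, and it was lower in the R270H than in the null genotype (-0.95, adjusted p = 0.0409).

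Rb1 (chromosome 14, 73183673 to 73325822), the substrate on which the kinases act, was at 18.7 and 20.55 rpkm in Trp53+/+, 5.42 and 9.36 in Trp53flox/flox, and 9.88 and 9.13 in Trp53R270H/R270H. All 4 Trp53-mutant libraries were below 10 rpkm and both wild-type libraries above 18. Rb1 fell 2.65-fold in Trp53flox/flox (log2 difference -1.34, SE 0.24, limma adjusted p = 0.0329). In Trp53R270H/R270H the difference was -0.97 (95% interval -1.58 to -0.37, adjusted p = 0.0595), and the 2 Trp53-mutant genotypes differed by 0.36 with an interval from -0.24 to 0.97. The call was lost without any 1 library of Trp53+/+ or Trp53R270H/R270H (0.125 to 0.273). The neighbours of Rb1 differed from each other. Of the 5 other tested genes within 500 kb, Lpar6 and Itm2b were called lower in both comparisons with Trp53+/+. Of all genes 6.9% fell in Trp53flox/flox and 6.36% in Trp53R270H/R270H. Med4 and Sucla2 had higher means than Trp53+/+ in both Trp53-mutant genotypes, and Fndc3a in Trp53R270H/R270H alone. The median of the 5 was -0.59 in Trp53flox/flox and 0.17 in Trp53R270H/R270H. Lpar6, a receptor gene within Rb1 on the opposite strand, was at 16.8 and 16.9, 11.1 and 9.93, and 11.1 and 10.7 rpkm. Reads of their shared bases cannot be told apart where counting ignores strand.

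E2f1 (chromosome 2, 154559407 to 154569892) stayed within a narrow range, at 10.4 and 10.7 rpkm in Trp53+/+, 11.2 and 10.9 in Trp53flox/flox, and 12.6 and 12.0 in Trp53R270H/R270H. Its log2 differences from Trp53+/+ were 0.06 (95% interval -0.19 to 0.31) and 0.20 (-0.05 to 0.44), and neither passed the test (limma adjusted p = 0.672 and 0.233). The ratio of Rb1 to E2f1 was 1.79 and 1.92 in Trp53+/+, 0.484 and 0.855 in Trp53flox/flox, and 0.787 and 0.760 in Trp53R270H/R270H. Rb1 transcripts therefore outnumbered E2f1 transcripts per length in the wild-type libraries and were outnumbered by them in the other 4.

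The partners of Rb1 and E2f1 were taken from a list of 11 pocket protein, E2F and DP genes, of which 10 were tested. E2f8, which encodes a repressive E2F, rose in both Trp53-mutant genotypes, from 11.4 and 11.9 rpkm to 21.9 and 19.7 in Trp53flox/flox (log2 difference 0.78, limma adjusted p = 0.0188) and to 20.8 and 21.5 in Trp53R270H/R270H (0.81, adjusted p = 0.0136). E2f4, a factor that works mostly with the other pocket proteins, rose in Trp53flox/flox from 35.9 and 38.1 to 55.8 and 55.5 rpkm (0.58, adjusted p = 0.0274) and was lower in Trp53R270H/R270H than there (-0.42, adjusted p = 0.0331). E2f2, an activating E2F, rose in Trp53R270H/R270H from 3.27 and 3.09 to 6.64 and 6.60 rpkm (0.87, limma adjusted p = 0.0286). There it also exceeded its level in Trp53flox/flox, 3.37 and 4.46 rpkm (adjusted p = 0.0378). E2f2 reached 4 rpkm only in the R270H libraries and in Trp53flox/flox replicate 2. Both calls therefore depend on how genes were admitted. E2f5 and the DP partner gene Tfdp2 were also higher in Trp53R270H/R270H than in Trp53flox/flox (0.55 and 0.76, adjusted p = 0.0355 and 0.0344). Rbl1 and Rbl2, which encode the other pocket proteins, were called in no comparison.

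Cyclin E and its kinase act after the D cyclins. Of 8 genes of cyclin E, cyclin A and CDK2, 1 rose in Trp53flox/flox and 2 in Trp53R270H/R270H over Trp53+/+, where 4.38% and 5.86% of all genes rose, and none was called between the Trp53-mutant genotypes (limma). Ccne2 rose in Trp53flox/flox from 4.80 and 4.65 to 7.47 and 7.34 rpkm (log2 difference 0.55, adjusted p = 0.0389), and stood at 7.10 and 6.59 rpkm in Trp53R270H/R270H (0.45, adjusted p = 0.0571). Ccne1 rose in Trp53R270H/R270H from 9.23 and 9.74 to 16.1 and 14.4 rpkm (0.63, adjusted p = 0.0271), where Trp53flox/flox had 13.9 and 13.1 rpkm (0.47, adjusted p = 0.0549). Cdc25a, the phosphatase that activates CDK2, rose in Trp53R270H/R270H from 12.8 and 12.6 to 18.9 and 18.9 rpkm (0.54, adjusted p = 0.0266). In these 3 genes every Trp53-mutant library lay above both wild-type libraries, as the null libraries did in 30.6% and the R270H libraries in 44.2% of all genes.

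Genes that E2F factors are known to drive, a list of 32 replication genes chosen with earlier results of these data known, were all tested. In Trp53flox/flox against Trp53+/+, 8 rose and none fell (28 of 32 differences above 0, median 0.47, where all genes had a median of -0.02 and 4.38% rose). Mybl2, a transcription factor gene of the cell cycle, showed the largest of these differences, from 16.6 and 15.7 to 37.8 and 38.9 rpkm (1.20, limma adjusted p = 0.00755). Rrm2, a ribonucleotide reductase subunit gene, rose from 64.1 and 71.7 to 132 and 106 rpkm (0.80, adjusted p = 0.0319), and Tk1, thymidine kinase, from 42.2 and 42.1 to 81.3 and 67.0 rpkm (0.79, adjusted p = 0.0282). Cdc6, a gene of replication licensing, rose from 8.86 and 8.69 to 16.1 and 15.6 rpkm (0.79, adjusted p = 0.0166). Slbp, which encodes the binding protein of histone mRNA, rose from 39.9 and 36.9 to 73.5 and 56.2 rpkm (0.73, adjusted p = 0.0427).

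In Trp53R270H/R270H against Trp53+/+, 1 of the 32 rose and 1 fell, where 5.86% of all genes rose and 6.36% fell, and the median difference was 0.10. The gene that rose was Orc1 (0.58), named here after its value was seen. These counts changed with the fit. With only these 2 genotypes fitted, 12 of the list were called higher and 6 lower, beside 3150 and 2618 of all genes. In Trp53flox/flox against Trp53+/+ the same kind of fit called 0 of the list, and 13 of all genes higher and 46 lower. The main counts therefore do not show a rise particular to the null genotype. Against Trp53flox/flox, 7 of the 32 fell and none rose in Trp53R270H/R270H (median -0.37, all genes 0.03), where 11.0% of all genes fell and 13.6% rose. Mybl2 was at 19.0 and 20.7 rpkm there (-0.92, limma adjusted p = 0.00674), and Cdt1, a licensing factor gene, at 7.94 and 11.0 rpkm against 22.3 and 23.2 in Trp53flox/flox (-1.20, adjusted p = 0.0119). Summed epithelial markers, given above, were also highest in Trp53flox/flox, though lowest in Trp53R270H/R270H, and the part of culture composition in these counts was not tested. Left out 1 at a time, the libraries set these counts: of the 8 and 7 calls, 0 and at most 1 were made without any 1 Trp53+/+ or Trp53R270H/R270H library, while without Trp53flox/flox replicate 1 there were 18 and 17 calls and without replicate 2 there were 26 and 26, of which 3 and 4 ran the other way.

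**Figure D4:**
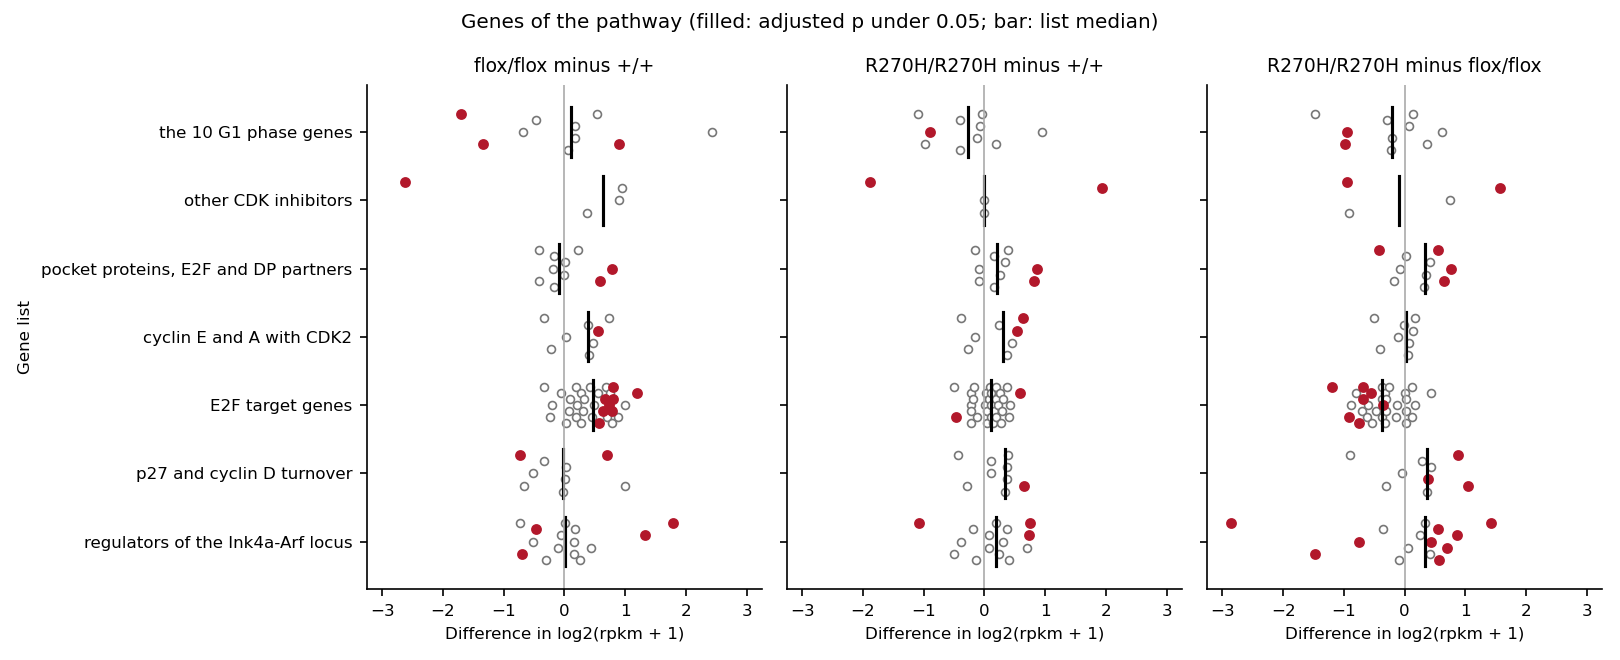
Difference in log2(rpkm + 1) between genotypes (horizontal axis) for each tested gene of the 10 G1 phase genes and of the 6 lists of partners (vertical axis). Points are genes, filled where the adjusted p was under 0.05, and black bars are list medians. Among E2F target genes 8 filled points lie above 0 in the left panel and 7 below 0 in the right panel.

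Proteins that destroy p27 and D cyclins were followed through a list of 12 genes, of which 9 were tested. Skp2, the ubiquitin ligase subunit that marks p27, rose in both Trp53-mutant genotypes, from 4.64 and 4.06 rpkm to 7.95 and 7.38 in Trp53flox/flox (log2 difference 0.70, limma adjusted p = 0.0310) and to 7.17 and 7.55 in Trp53R270H/R270H (0.65, adjusted p = 0.0330). Rnf123, another ligase gene of p27, fell in Trp53flox/flox from 9.97 and 10.2 to 4.98 and 6.47 rpkm (-0.73, adjusted p = 0.0427). Gsk3b, whose kinase marks cyclin D1 for export and degradation, Skp1a and Cul1 were higher in Trp53R270H/R270H than in Trp53flox/flox (1.04, 0.88 and 0.38, adjusted p = 0.0293, 0.0269 and 0.0392). Gsk3b was at 18.4 and 19.4 rpkm in Trp53+/+, 9.13 and 14.7 in Trp53flox/flox, and 25.9 and 23.8 in Trp53R270H/R270H.

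Of 17 genes known to regulate the Cdkn2a locus, 15 were tested. In Trp53flox/flox against Trp53+/+, 2 rose and 2 fell, where 4.38% and 6.9% of all genes did (limma). In Trp53R270H/R270H against Trp53+/+ 2 rose and 1 fell, beside 5.86% and 6.36% of all genes. Between the Trp53-mutant genotypes 6 were higher and 3 lower in Trp53R270H/R270H, beside 13.6% and 11.0%. Tbx3, a repressor of p19Arf transcription, was at 29.9 and 30.7 rpkm in Trp53+/+, 17.4 and 19.2 in Trp53flox/flox, and 52.3 and 49.3 in Trp53R270H/R270H. It fell in the null genotype (-0.70, adjusted p = 0.0226) and rose in the R270H genotype (0.73, adjusted p = 0.0164). Jund was at 4.13 and 3.59, 15.9 and 15.6, and 1.06 and 1.58 rpkm, higher in the null (1.79, adjusted p = 0.00888) and lower in the R270H genotype (-1.07, adjusted p = 0.0190) than in Trp53+/+. Id1, an inhibitor of the E proteins that activate p16Ink4a, rose in Trp53flox/flox from 23.9 and 22.5 to 57.8 and 61.4 rpkm (1.33, adjusted p = 0.00691). The Polycomb genes differed from each other: Bmi1 rose in Trp53R270H/R270H from 13.8 and 13.0 to 23.9 and 22.6 rpkm (0.75, adjusted p = 0.0152), Rnf2 fell in Trp53flox/flox from 30.9 and 29.5 to 21.6 and 21.8 rpkm (-0.46, adjusted p = 0.0424), and Ring1 was lower in Trp53R270H/R270H than in Trp53flox/flox (-0.75, adjusted p = 0.0367). The level of Cdkn2a itself was called in none of these comparisons.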

How the data were processed

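Poly(A) RNA of 6 organoid libraries was sequenced from stranded libraries. The authors mapped reads to mm10 and deposited rpkm values calculated with StrandNGS, whose version, annotation and strand setting are not given in the sources used here. No deposited rpkm value is below 1, and 23760 genes stand at 1 in all libraries, so ratios of low genes are compressed. The table holds no counts, and no interval from counting could be given.

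The 10042 genes that reached 4 rpkm in any library were compared on log2(rpkm + 1) with limma 3.58.1 in R 4.3.3 (lmFit, eBayes with trend, two-sided, Benjamini-Hochberg over these genes, threshold 0.05), with all 6 libraries in 1 fit. This log scale understates changes of low genes. Sums and ratios were made within libraries in Python 3.11.15 with pandas 2.3.3 and carry no test. Positions are from GENCODE M21 on GRCm38, the build equal to mm10, which matched 99.2% of the genes tested, and windows of 250 bases before starts are from RefSeq. The code was tested on simulated data.

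The 10 genes, the partner lists and the marker lists were chosen with earlier results of these data known. All 10 genes are given in every library. From each list, genes called in at least 1 comparison are named, at most the 6 with the largest differences, with Cdkn1a and Trp53 added. The values of 1 E2F target gene are not reported here.

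Alternatives were pseudocounts of 0.1 and none, other filters, scaling by median of ratios or by upper quartile, a replicate block, weights by genotype, no trend, fits of only the 2 genotypes compared, the 2-fold rule on means, and each library left out in turn. A filter above 1 rpkm, an exchanged block and the counts of E2F targets under each setting were chosen after seeing the data. Replicate numbers come from titles and mark different mice.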

Additional observations from a re-analysis of the deposited data

How the results depend on the processing

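Members called in Trp53flox/flox against Trp53+/+, R270H/R270H against +/+ and R270H/R270H against flox/flox, 3, 1 and 2 as reported, became 0, 0 and 0 with no filter, 0, 7 and 0 with weights by genotype and 0, 7 and 0 with only the 2 genotypes compared in the fit. In the last of these fits Ccnd3 was below the filter, and so not tested, for R270H/R270H against +/+. By the 2-fold rule the second count was 3. With libraries left out singly the counts ran from 0 to 8, 0 to 7 and 0 to 7. Fewer libraries leave fewer degrees of freedom, and the flox/flox libraries carry most of the shared spread. Replicate numbers did not pair the libraries (correlations of same-numbered deviations 0.117, -0.291 and -0.196): a replicate block gave 1, 1 and 2 members, and a block with R270H numbers exchanged gave 4, 2 and 2. Calls over all genes, 1133, 1227 and 2469, became 73, 427 and 750 with no filter, 280, 550 and 1156 under the replicate block, 150, 5987 and 534 with weights, and 59, 5768 and 397 with only the 2 genotypes, and ran from 8 to 6891, 0 to 5746 and 165 to 7241 with libraries left out. With the filter above 1 rpkm the second was 1907. In 539 member values under alternatives the sign turned in 6, each time without 1 library. Over the libraries left out, Cdk4 ran from -0.20 to 0.54 (flox/flox against +/+) and from -0.67 to 0.075 (R270H/R270H against flox/flox) and Cdk6 from -0.33 to 0.46 (the latter comparison), each turning without flox/flox replicate 1, where Cdk6 was called (adjusted p = 0.0175). Against +/+, in R270H/R270H, Ccnd3 ran from -0.23 to 0.065, turning without R270H/R270H replicate 1, and Cdkn1b from -0.14 to 0.069, turning without that library or +/+ replicate 1. Causes beyond the number of samples and genes tested were not tested. The scaling alternatives, other pseudocounts, the filter on both libraries and no trend left the counts of members at 3, 1 and 2. The 2 libraries per genotype and the floor at 1 rpkm limit every value.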
